A study of Mus musculus with 8 samples.

Results

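Surface proteins in common use as markers of mesenchymal stem cells (MSCs) were followed by the RNA of 10 genes, *Thy1*, *Eng*, *Nt5e*, *Ly6a*, *Cd44*, *Vcam1*, *Pdgfra*, *Pdgfrb*, *Mcam* and *Alcam*. The 10 genes were chosen by symbol out of the 41325 genes listed, and all 10 were found in every library. The cells were C3H10T1/2, a mouse mesenchymal stem cell line that forms adipocytes under hormonal induction. The lines sequenced were control cells (titled shControl, with the genotype given as WT) and cells depleted of KDM4D, NFIB or MLL1 (shKDM4D, shNFIB and shMLL1). Each line was taken at day 0, when cells had been confluent for 2 days, and at day 5 of adipogenic differentiation, which was started with insulin, dexamethasone and isobutylmethylxanthine in serum. These 8 conditions had 1 library each. The knockdown cells came from puromycin-resistant clones carrying an shRNA in pLKO.1, the clone that was sequenced is not given in the sources used here, and whether the control cells carried the vector is not given either. With 1 line per target, an effect of the knockdown and a property of the clone cannot be told apart, nor can fewer cells carrying a transcript and less of it per cell.

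Cultured MSCs are defined partly by the antigens on their surface, since no single protein marks them. *Thy1* (CD90), *Nt5e* (CD73) and *Ly6a* (Sca-1) encode proteins held in the membrane by a lipid (GPI) anchor. *Eng* (CD105) encodes a co-receptor of the transforming growth factor β family, *Pdgfra* and *Pdgfrb* encode the tyrosine kinase receptors for platelet-derived growth factor, and *Cd44*, *Vcam1*, *Mcam* (CD146) and *Alcam* (CD166) encode adhesion molecules. In adipose tissue, the cells that can become fat cells lie among stromal cells carrying several of these proteins, and PDGFRα is widely used to find them.

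The libraries held between 15800000 and 38200000 mapped reads. On 1 kb of exons, 3 reads thus corresponded to an RPKM (reads per exon length and library size) between 0.0785 and 0.189. Reads of the ribosomal RNA-like genes *AY036118* and *CT010467.1* made up 7.95% to 10.5% of the day 0 libraries. Their share was 3.07% to 3.62% at day 5, and its part in the ratios between days was not tested. Intervals given with levels and ratios are exact 95% intervals and cover counting error only, since no replicate library measures the spread between cultures. *Nfib* was lower in shNFIB cells by log2 ratios of -2.10 and -2.33 at day 0 and day 5, and *Kmt2a*, which encodes MLL1, was lower in shMLL1 cells by -1.37 and -1.70. *Kdm4d* had 1 and 4 reads in shKDM4D cells against 2 and 13 in shControl cells, and the depth did not allow a difference to be seen at day 0. All 9 mesenchymal genes examined (*Vim*, *Col1a1*, *Prrx1* and others) exceeded an RPKM of 1 in every library. Of 9 haematopoietic genes only *Cd14* exceeded 1 anywhere, the other 8 reaching at most 0.193, and of 6 endothelial genes only *Tek* did, the other 5 reaching at most 0.125. Among 7 pericyte genes the channel genes *Kcnj8* and *Abcc9* were at 0 throughout, while *Acta2* ranged from 289 to 1280. *Notch3* (2.85 to 17.1) and *Cspg4* (4.41 to 14.2) exceeded 1 in every library, *Des* reached 1.35 and *Rgs5* stayed at 0.173 or below. The day 5 libraries of shNFIB and shMLL1 cells stood apart by 9 interferon-induced genes, with a summed RPKM of 1024 and 2210.3 against 15.6 to 84.9 in the other 6 libraries.

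An RPKM above 1 in at least 1 library was reached by 9 of the 10 markers, all but *Nt5e*, and by 11513 of all genes. By RPKM, which allows levels of different genes to be compared, *Ly6a* was the most abundant marker in all 8 libraries, with values from 81.5 to 927, above 95.9% of the expressed genes even in its lowest library. The order of the others depended on the library. In shControl cells at day 0, *Pdgfrb* (38.2) was followed by *Thy1* (25.0), *Cd44* (20.7), *Alcam* (18.4), *Pdgfra* (13.4), *Vcam1* (11.8), *Eng* (8.73) and *Mcam* (1.18). At day 5 *Pdgfra* (70.8) and *Pdgfrb* (65.8) came directly after *Ly6a* in those cells. The spread of a marker over the 8 libraries, taken as the highest over the lowest RPKM, was smallest for *Pdgfrb* (2.08), *Cd44* (2.57) and *Eng* (2.66) and was 3.27 for *Vcam1*, 5.50 for *Pdgfra*, 7.03 for *Alcam*, 11.4 for *Ly6a* and 14.7 for *Mcam*. For *Thy1* it was 1463, with a single read in 2 of the libraries.

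**Figure D1:**
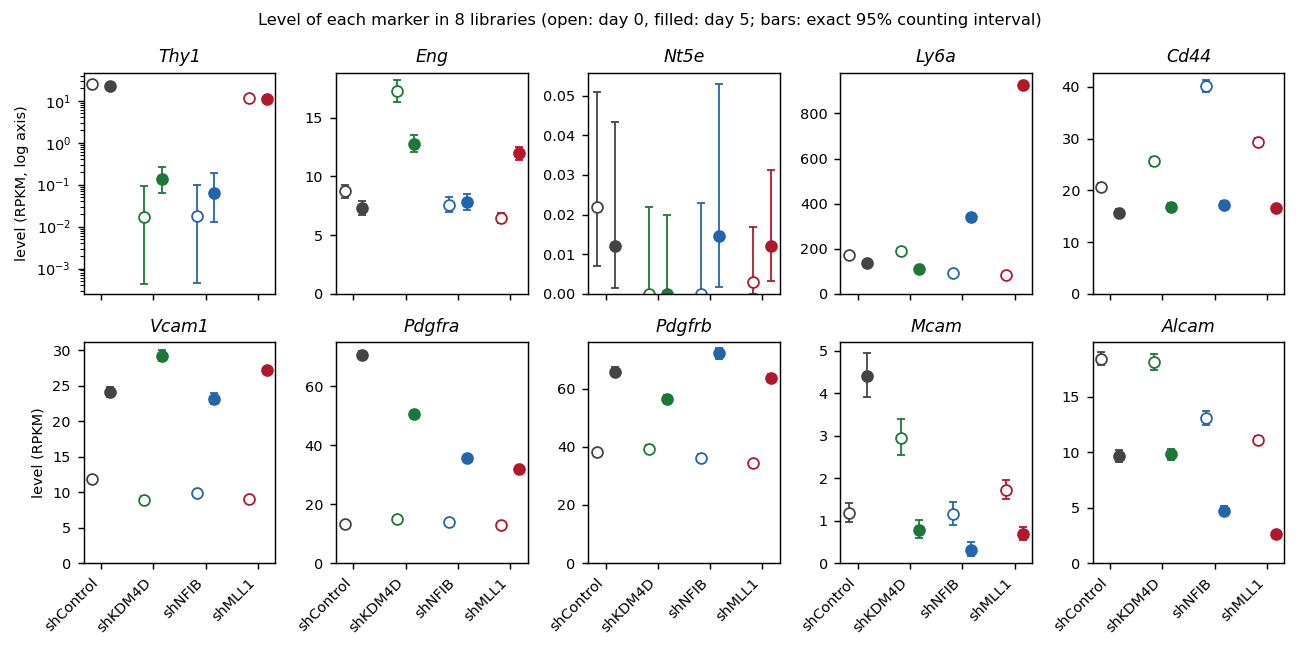
Level of each of the 10 markers (RPKM, vertical axis; logarithmic for *Thy1*, linear from 0 for the others) in shControl, shKDM4D, shNFIB and shMLL1 cells; open circles stand for day 0, filled circles for day 5 and bars for the exact 95% counting interval. *Thy1* lies between 11.1 and 25.0 in shControl and shMLL1 cells and at 0.139 or below in shKDM4D and shNFIB cells, and *Pdgfra* starts between 12.9 and 15.0 in every line but ends between 32.0 and 70.8.

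The change from day 0 to day 5 was compared with a 2-fold limit, since 1 library per condition allows no test. In shControl cells 3 of the 9 markers rose by more than 2-fold (*Vcam1*, *Pdgfra* and *Mcam*), where 13% of all expressed genes rose, and none fell, where 8.56% did. In shKDM4D cells *Vcam1*, *Pdgfra* and *Thy1* rose (3 of 9, against 12.8% of all genes) and *Mcam* fell (1 of 9, against 8.44%). In shNFIB cells *Ly6a*, *Vcam1*, *Pdgfra* and *Thy1* rose (4 of 9, against 12.6%), and *Cd44*, *Mcam* and *Alcam* fell (3 of 9, against 4.96%). In shMLL1 cells *Ly6a*, *Vcam1* and *Pdgfra* rose (3 of 9, against 20.4%), and *Mcam* and *Alcam* fell (2 of 9, against 6.89%). The increases counted for *Thy1* rest on 1 and 9 reads in shKDM4D cells and on 1 and 3 reads in shNFIB cells, so that the second lies within the 3 reads taken as the detection limit. The first was inside the 2-fold limit with 1 added to each RPKM (0.16), and the second with 0.1 added (0.47), with 1 added (0.06) and under quantile normalization (0.62). The median log2 change of the 9 markers was -0.15, -0.43, 0.99 and 0.88 in shControl, shKDM4D, shNFIB and shMLL1 cells, beside 0.03, 0.03, 0.10 and 0.17 over all expressed genes. Without *Thy1*, the median of the other 8 was 0.26, -0.52, 0.51 and 0.88 in the same order.

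**Figure D2:**
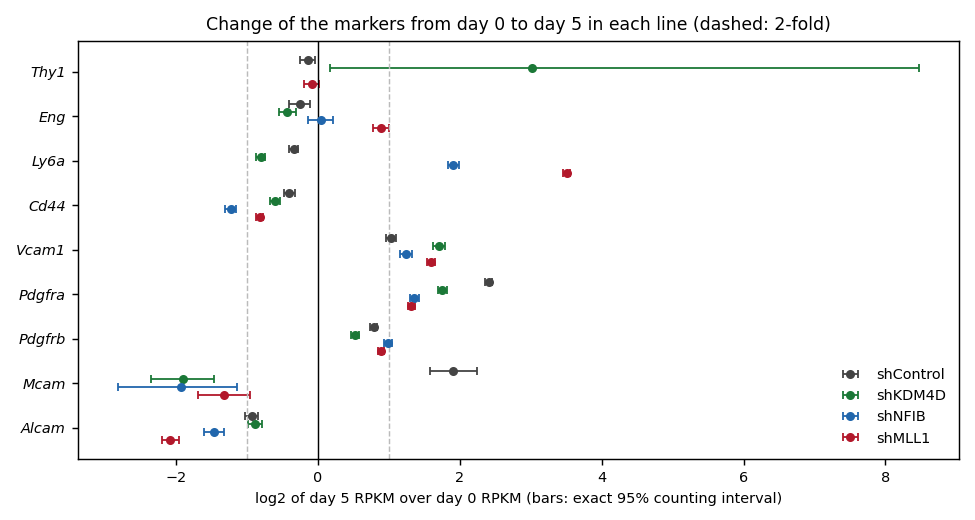
Log2 of the day 5 over the day 0 RPKM (horizontal axis) for the 9 markers above an RPKM of 1 in at least 1 library, with 1 point per line, bars for the exact 95% counting interval and dashed lines at 2-fold; *Thy1* in shNFIB cells is left out because neither library exceeded 3 reads. *Vcam1*, *Pdgfra* and *Pdgfrb* lie to the right of 0 in all 4 lines, *Cd44* and *Alcam* to the left, and *Mcam* lies at 1.91 in shControl cells and between -1.93 and -1.32 in the knockdown lines.

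At day 0, 1 of 9 markers was more than 2-fold higher in shKDM4D cells than in shControl cells (*Mcam*, against 1.98% of all genes) and 1 was lower (*Thy1*, against 4.26%). None was higher in shNFIB cells (2.95% of all genes were) and only *Thy1* was lower (1 of 9, against 6.05%). None was higher in shMLL1 cells (1.67% were), whereas *Thy1* and *Ly6a* were lower (2 of 9, against 7.43%). At day 5 the number of lower markers was 2 in shKDM4D cells (*Thy1* and *Mcam*, against 4.57%), 3 in shNFIB cells (*Thy1*, *Mcam* and *Alcam*, against 5.67%) and 4 in shMLL1 cells (*Thy1*, *Pdgfra*, *Mcam* and *Alcam*, against 4.02%). At that time no marker was higher in shKDM4D cells (1.88% of all genes were), and *Ly6a* alone was higher in shNFIB (1 of 9, against 5.54%) and shMLL1 cells (1 of 9, against 5.25%). The 3 knockdown lines were compared with the same shControl libraries, so these counts are not independent of each other.

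**Figure D3:**
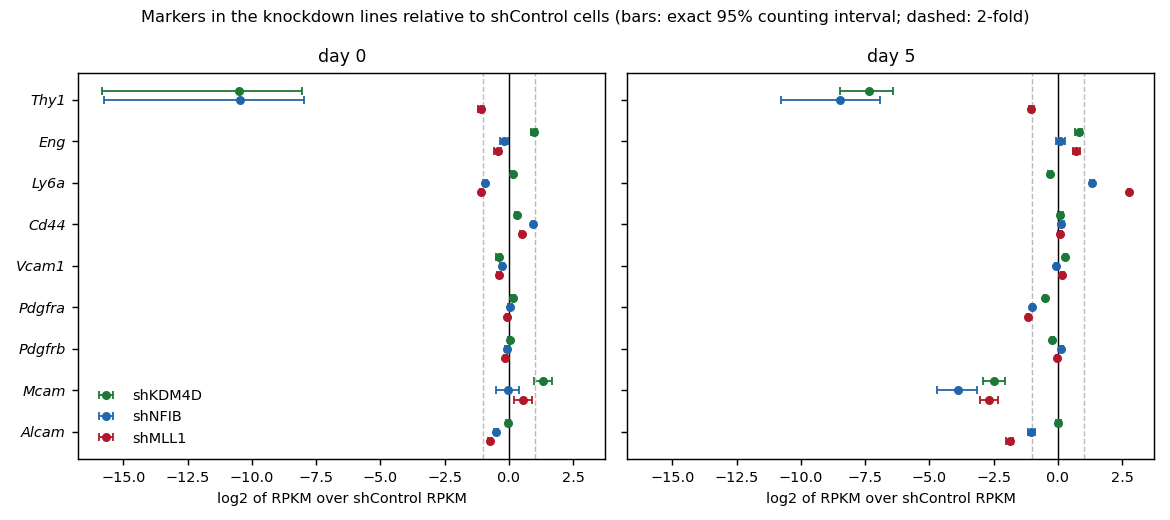
Log2 of the RPKM in shKDM4D, shNFIB and shMLL1 cells over that in shControl cells (horizontal axis) for 9 markers at day 0 (left) and day 5 (right), with bars for the exact 95% counting interval and dashed lines at 2-fold. *Thy1* lies beyond -7 in shKDM4D and shNFIB cells at both times, *Mcam* is spread from -0.03 to 1.33 at day 0 and from -3.87 to -2.49 at day 5, and *Pdgfrb* stays within 0.22 of 0.

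*Thy1* (chromosome 9 of GRCm38, from 44043384 to 44048579 on the plus strand, protein coding), which encodes a small immunoglobulin-like protein of fibroblasts, neurons and T cells, showed the largest differences between lines. Its RPKM in shControl cells was 25.0 at day 0 and 22.6 at day 5, from 1995 and 1309 reads. In shMLL1 cells it was 11.8 and 11.1, from 1352 and 1267 reads. In shKDM4D cells it was 0.0171 and 0.139, from 1 and 9 reads, and in shNFIB cells 0.0179 and 0.0632, from 1 and 3 reads. The lines thus fell into 3 levels that did not overlap, with shControl cells highest, shMLL1 cells below them and the other lines near 0 on both days. The log2 ratio to shControl cells was -10.52 (-15.82 to -8.04) in shKDM4D and -10.45 (-15.75 to -7.97) in shNFIB cells at day 0. By day 5 these ratios were -7.35 (-8.48 to -6.42) and -8.48 (-10.76 to -6.93). Neither line differed from the other beyond counting error, with an interval of the shNFIB over shKDM4D log2 ratio from -3.66 to 0.87 at day 5. In shMLL1 cells the ratios for the 2 days, -1.08 (-1.18 to -0.98) and -1.03 (-1.14 to -0.91), were near the 2-fold limit, which it missed under median-of-ratios scaling at day 0 (-0.99) and with 1 added to each RPKM at day 5 (-0.96). The level hardly moved with differentiation where the gene was expressed, by -0.15 (-0.25 to -0.04) in shControl and -0.09 (-0.20 to 0.02) in shMLL1 cells.

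The genes around *Thy1* were then examined, after its values had been seen. Within 250 kb on either side lay 8 other expressed protein coding genes, from *Nectin1*, whose first base is 299.4 kb below that of *Thy1*, to *Hinfp*, 249 kb above it. At day 0 their log2 ratios to shControl cells ranged from -0.58 to 1.33 in shKDM4D and from -0.85 to 0.87 in shNFIB cells. The nearest, the ubiquitin protease gene *Usp2* at 23.6 kb, had 0.39 and 0.26 there, and *Rnf26* at 52.2 kb had 0.39 and 0.51. A difference of the size seen for *Thy1* was thus found in none of these 8 genes at day 0. *C1qtnf5* lies within *Rnf26*, so reads of the 2 genes may not be fully separated. At day 5 the lowest neighbour was *Mcam*, itself a marker and 91.1 kb from *Thy1*, at -2.49 and -3.87, while the other 7 lay between -0.94 and 0.45 in both lines. In shMLL1 cells *C1qtnf5* was at -3.08 at day 0. The 3 genes with the RPKM pattern most like that of *Thy1* over the 8 libraries were the carboxylesterase gene *Ces2g* (Pearson r = 0.95), *0610010K14Rik* (0.94) and *Nsa2* (0.94), out of 7934 genes searched. *Ces2g* had an RPKM of 7.16 and 9.22 in shControl, 4.61 and 5.41 in shMLL1, 0.745 and 0.673 in shKDM4D and 0.150 and 0.0883 in shNFIB cells, an order of lines like that of *Thy1*. *Nsa2* varied far less, from 77.1 to 102, and *0610010K14Rik* was highest in shMLL1 cells (17.9 and 17.5). These correlations describe the shape of a pattern, not its size, over 8 points that share lines and depth.

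**Figure D4:**
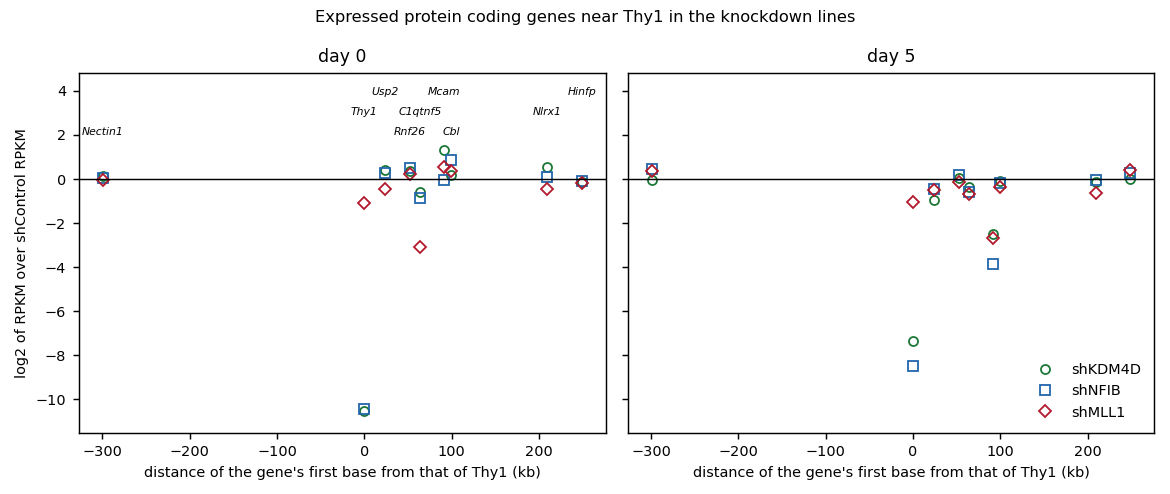
Log2 of the RPKM in each knockdown line over shControl cells (vertical axis) for *Thy1* and 8 expressed protein coding genes near it, against the distance between first bases in kb, at day 0 (left) and day 5 (right). *Thy1* stands at -10.52 and -10.45 in shKDM4D and shNFIB cells at day 0, where *Mcam* at 91.1 kb stands at 1.33 and -0.03.

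*Nt5e* (chromosome 9, from 88327197 to 88372092, plus strand, protein coding), which encodes the ecto-5′-nucleotidase that turns AMP into adenosine outside the cell, was barely covered. It had 5 and 2 reads in shControl cells at day 0 and day 5, 0 and 0 in shKDM4D, 0 and 2 in shNFIB and 1 and 4 in shMLL1 cells. The highest RPKM was 0.0218 (0.00709 to 0.0509), and 3 reads, the limit that a count of 0 allows, correspond to 0.0161 to 0.0187 in the libraries with 0 reads. No difference of *Nt5e* between lines or days was detectable at this depth. Of 9 other genes of extracellular adenosine, 5 passed an RPKM of 1, led by the adenosine kinase gene *Adk* with values from 3.61 to 7.30. Between the days, the ectonucleotidase gene *Entpd2* rose past the 2-fold limit in all 4 lines, from at most 0.0176 to between 0.326 and 1.22. It was at 0 at day 0 in each knockdown line. As *Entpd2* passed an RPKM of 1 only in shKDM4D cells at day 5 (1.22), its rise there was favoured by the filter. The receptor genes *Adora1*, *Adora2a* and *Adora3* stayed at 0.358 or below.

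*Ly6a* (chromosome 15, from 74994877 to 74998031, minus strand, protein coding) encodes the stem cell antigen Sca-1 of the Ly6 family. At day 0 and day 5, shControl cells had an RPKM of 172 and 136, and shKDM4D cells of 191 and 109. The shNFIB libraries had 90.6 and 340.2, and the shMLL1 libraries 81.5 and 927. Day 5 was thus below day 0 in 2 lines and above it in the other 2, and at day 0 the lines that later had the most *Ly6a* had the least. The log2 change was -0.34 (-0.41 to -0.28) in shControl, -0.81 (-0.88 to -0.74) in shKDM4D, 1.91 (1.84 to 1.98) in shNFIB and 3.51 (3.46 to 3.56) in shMLL1 cells. Against shControl cells, *Ly6a* at day 5 was higher by 1.33 (1.27 to 1.39) in the shNFIB library and by 2.77 (2.72 to 2.83) in that of shMLL1, and shMLL1 exceeded shNFIB cells by 1.45 (1.41 to 1.48). At day 0 the ratio was -0.92 (-0.998 to -0.851) in shNFIB and -1.08 (-1.14 to -1.02) in shMLL1 cells, the latter inside the 2-fold limit under median-of-ratios scaling (-0.98).

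These are the 2 libraries with high interferon-induced genes. Without them, *Ly6a* ranged from 81.5 to 191. The summed RPKM of the 9 genes (*Isg15*, *Ifit1*, *Ifit3*, *Oasl2*, *Irf7*, *Rsad2*, *Usp18*, *Ifi44* and *Bst2*) went from 20.8 to 1024 in shNFIB and from 16.4 to 2210.3 in shMLL1 cells, against 47.1 to 84.9 in shControl and 15.6 to 71.5 in shKDM4D cells. At day 5, 8 of these 9 exceeded shControl cells by over 2-fold in the shNFIB library (against 5.54% of all expressed genes). In the shMLL1 library 9 of 9 did (against 5.25%). *Rsad2* was at 0 in the shNFIB library and passed an RPKM of 1 only in the shMLL1 library at day 5 (4.30). Its place in the second count was thus favoured by the filter. *Ifi44* passed an RPKM of 1 only in the day 5 libraries of shNFIB (11.1) and shMLL1 cells (79.8). Its place in both counts was thus favoured as well. In shKDM4D cells 8 of the 9 rose past 2-fold from day 0 to day 5 (against 12.8% of all genes), while *Ly6a* was lower. The part of this signal in the *Ly6a* values was not tested.

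Other Ly6 genes moved in the same libraries. Of 9 examined, 4 passed an RPKM of 1, and all 4 (*Ly6c1*, *Ly6c2*, *Ly6e* and *Ly6f*) rose by more than 2-fold in shNFIB and in shMLL1 cells, while 3 of 4 did in shControl and 2 of 4 in shKDM4D cells, beside 12.6%, 20.4%, 13% and 12.8% of all expressed genes in that order of lines. *Ly6f* passed that filter only through the shMLL1 library at day 5 (1.46), so its rise in shMLL1 cells was favoured by the filter. *Ly6c1* went from 4.70 to 37.9 in shNFIB and from 8.37 to 120 in shMLL1 cells. It went from 9.49 to 19.2 in shControl and from 11.5 to 16.8 in shKDM4D cells. *Ly6e* reached 176 in shMLL1 cells at day 5 and 21.8 in shNFIB cells, close to the 17.2 of shControl cells. *Ly6a*, *Ly6c1* and *Ly6c2* are close copies, and how reads that match several places were assigned is not given in the sources used here, so their individual values are uncertain. With the reads of these 3 genes summed, a choice made after the data were seen, the log2 change was 2.03 in shNFIB and 3.55 in shMLL1 cells, and the day 0 ratio of shMLL1 to shControl cells was -0.98, inside the 2-fold limit. The 3 genes most like *Ly6a* over the 8 libraries were the interferon-inducible GTPase gene *Irgm1*, the cap methyltransferase gene *Cmtr1* and *4933434E20Rik* (each r = 0.96). *Cmtr1* and *4933434E20Rik* varied less than *Ly6a*, from 5.08 to 16.5 and from 3.92 to 6.59.

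**Figure D5:**
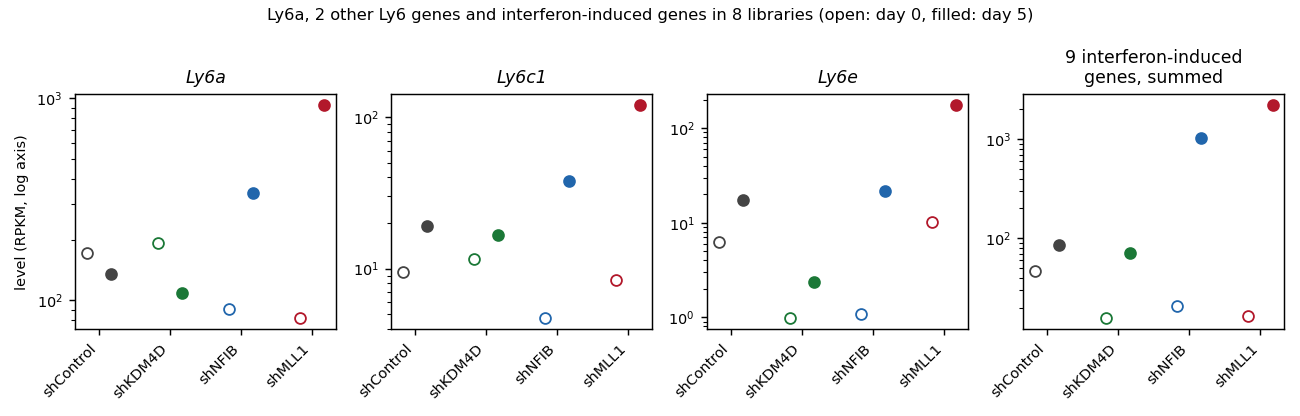
RPKM (vertical axes, logarithmic) of *Ly6a*, *Ly6c1*, *Ly6e* and the sum of 9 interferon-induced genes in the 4 lines, with open circles for day 0 and filled circles for day 5. The shMLL1 library at day 5 is the highest in all 4 panels (*Ly6a* 927, summed genes 2210.3), and the shNFIB library at day 5 is the second highest.

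*Eng* (chromosome 2, from 32646595 to 32682669, plus strand, protein coding) had an RPKM of 8.73 and 7.28 in shControl cells at day 0 and day 5. It was 17.2 and 12.8 in shKDM4D, 7.58 and 7.80 in shNFIB and 6.47 and 12.0 in shMLL1 cells. The shKDM4D libraries were the highest, and their level at day 5 did not differ from that of shMLL1 cells beyond counting error (log2 ratio of shMLL1 to shKDM4D cells -0.10, from -0.20 to 0.01). Relative to shControl cells, *Eng* in shKDM4D cells was at 0.98 (0.86 to 1.10) at day 0 and 0.81 (0.66 to 0.96) at day 5, below the 2-fold limit at both times. In shMLL1 cells the ratio went from -0.43 (-0.56 to -0.30) to 0.71 (0.58 to 0.85). The change over time was 0.89 (0.77 to 1.00) there against -0.26 (-0.41 to -0.11) in shControl cells. Of 10 genes of the endoglin pathway set beside it, 7 passed an RPKM of 1. *Tgfbr2*, the type II receptor for TGF-β, had the highest RPKM of them in 7 libraries, with 16.3 to 41.4, and came after *Tgfb3* (13.8) with 10.2 in shMLL1 cells at day 0. *Acvrl1*, the receptor that endoglin assists in endothelium, stayed at 0.355 or below, and the ligand genes *Gdf2* and *Bmp10* were at or near 0. *Tgfb2* rose in all 4 lines and was higher than in shControl cells at day 5 by 1.02 (0.89 to 1.14) in shKDM4D and 1.49 (1.37 to 1.61) in shNFIB cells. *Tgfbr3*, which encodes betaglycan, the co-receptor related to endoglin, rose by 1.35 (1.24 to 1.47) in shControl cells, against -0.05 (-0.22 to 0.12) in shNFIB cells.

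The PDGF receptor genes were alike in all lines at day 0, and *Pdgfra* differed between lines at day 5. *Pdgfra* (chromosome 5, from 75152292 to 75198215, plus strand, protein coding) started at an RPKM of 13.4 in control cells, 15.0 with shKDM4D, 13.9 with shNFIB and 12.9 with shMLL1. At day 5 it was 70.8, 50.5, 35.7 and 32.0 in the same order. The lines differed by at most 1.16-fold at day 0 and stood in a clear order at day 5, with shNFIB and shMLL1 cells still apart by more than counting error (-0.16, from -0.20 to -0.11). The log2 change was 2.41 (2.35 to 2.46) in shControl, 1.75 (1.70 to 1.81) in shKDM4D, 1.36 (1.29 to 1.43) in shNFIB and 1.31 (1.27 to 1.36) in shMLL1 cells, and that of shNFIB cells was inside the 2-fold limit per *Gapdh* (0.79). Relative to shControl cells at day 5 the ratio was -0.49 (-0.52 to -0.45), -0.99 (-1.03 to -0.94) and -1.15 (-1.18 to -1.11), and the middle value crossed the 2-fold limit under median-of-ratios scaling (-1.06).

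*Pdgfrb* (chromosome 18, from 61045150 to 61085061, plus strand, protein coding) had an RPKM between 34.6 and 39.3 at day 0. At day 5 the 4 lines, in the order used above, had 65.8, 56.6, 72.2 and 63.9. Every line was higher at day 5, by log2 changes of 0.79, 0.53, 0.99 and 0.88, all below 2-fold. Its ratio to shControl cells at day 5 was -0.22 (-0.27 to -0.17), 0.13 (0.08 to 0.18) and -0.04 (-0.09 to -0.00114). The level of *Pdgfra* per that of *Pdgfrb* therefore went from 0.350 (0.336 to 0.365) to 1.08 (1.05 to 1.11) in shControl cells and from 0.381 to 0.892 (0.865 to 0.920) in shKDM4D cells. In shNFIB cells it went from 0.383 to 0.495 (0.477 to 0.513) and in shMLL1 cells from 0.372 to 0.501 (0.489 to 0.514). This ratio needs no scaling between libraries, and at day 5 it was lower in each knockdown line than in shControl cells by more than counting error.

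Adipocyte genes were likewise highest in shControl cells at day 5, with shKDM4D cells next. The summed RPKM of 10 adipocyte genes (*Adipoq*, *Fabp4*, *Plin1*, *Cidec*, *Lpl*, *Cd36*, *Retn*, *Slc2a4*, *Pparg* and *Cebpa*) was between 4.09 and 11.0 at day 0 and, at day 5, 798 in control cells, 39.6 with shKDM4D, 12.2 with shNFIB and 12.4 with shMLL1, where all 10 were more than 2-fold below shControl cells in each knockdown line. Of all expressed genes, 4.57%, 5.67% and 4.02% were more than 2-fold lower in shKDM4D, shNFIB and shMLL1 cells at day 5. *Lpl*, *Cd36*, *Retn* and *Slc2a4* passed an RPKM of 1 only in shControl cells at day 5, the library in which they were higher. The part of the adipocyte genes in the marker values was not tested. The 3 genes most like *Pdgfra* over the 8 libraries were *Rab3a* (r = 0.99), *Map7d2* (0.99) and *Aoc3* (0.98), the last a vascular adhesion amine oxidase of adipocytes and smooth muscle, whose RPKM at day 5 was 42.8, 21.6, 5.52 and 4.06 in the same order of lines. Of the 4 PDGF ligand genes, all passed an RPKM of 1. *Pdgfc*, a ligand of PDGFRα, fell past the limit in control cells from 6.11 to 1.35, in shKDM4D cells from 6.75 to 1.38 and in shNFIB cells from 8.90 to 3.62, and had 7.72 and 5.05 in shMLL1 cells. It was higher than in shControl cells at day 5 by 1.42 (1.12 to 1.73) in shNFIB and 1.90 (1.64 to 2.17) in shMLL1 cells. *Pdgfd*, a ligand of PDGFRβ, rose to 9.15 in shNFIB and 5.90 in shMLL1 cells, against 4.15 in shControl cells.

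Among the adhesion molecules, *Cd44* (chromosome 2, from 102811141 to 102901665, minus strand, protein coding), the receptor for hyaluronan, had different levels at day 0 and nearly the same level at day 5. The day 0 RPKM was 20.7 in control cells, 25.6 with shKDM4D, 40.2 with shNFIB and 29.4 with shMLL1, followed by 15.7, 16.8, 17.1 and 16.6 at day 5. The day 0 ratio to shControl cells was highest in shNFIB cells, at 0.96 (0.90 to 1.02), which passed the 2-fold limit per *Gapdh* (1.60), while it was 0.31 (0.24 to 0.37) with shKDM4D and 0.51 (0.45 to 0.56) with shMLL1. By day 5 the 3 ratios were 0.10 (0.02 to 0.19), 0.13 (0.04 to 0.22) and 0.09 (0.01 to 0.16), and no pair of knockdown lines differed beyond counting error. The log2 change over time was -0.40, -0.61, -1.23 and -0.82 in the 4 lines, the last past the 2-fold limit under median-of-ratios scaling (-1.03). Of 8 genes of hyaluronan and other CD44 ligands, 7 passed an RPKM of 1. The hyaluronan synthase gene *Has2* rose in shControl cells from 1.28 to 3.21, in shKDM4D cells from 3.77 to 7.66 and likewise from 4.08 to 9.41 with shMLL1, while in shNFIB cells it had 7.68 and 4.51. *Vcan*, the gene of the hyaluronan-binding proteoglycan versican, rose in shControl cells from 27.3 to 94.6 and in shKDM4D cells from 38.0 to 92.6, and had 31.2 in shNFIB cells at day 5. The most abundant was *Spp1*, the gene of osteopontin, whose level differed between lines on both days. At day 0 and day 5 it had 206 and 221 in shControl cells and 104 and 159 in shKDM4D cells. It had 90.1 and 84.9 in shNFIB and 473 and 596 in shMLL1 cells.

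*Vcam1* (chromosome 3, from 116109949 to 116129688, minus strand, protein coding), whose product binds integrins containing the *Itga4* chain on leukocytes, rose in every line. Its RPKM went from 11.8 to 24.1 in shControl, from 8.96 to 29.2 in shKDM4D, from 9.81 to 23.2 in shNFIB and from 9.01 to 27.1 in shMLL1 cells. All day 5 libraries lay above all day 0 libraries. The log2 change was 1.03 (0.96 to 1.10), 1.71 (1.63 to 1.79), 1.24 (1.15 to 1.33) and 1.59 (1.53 to 1.65), and that of shControl cells fell inside the 2-fold limit under 3 other settings (0.97 to 0.99) and that of shNFIB cells per *Gapdh* (0.67). At day 5 the shNFIB and shControl libraries did not differ beyond counting error (-0.06, from -0.12 to 0.01). *Itga4* itself was at 0.158 or below in every library. Of 9 adhesion partners of the 4 adhesion markers, 6 passed an RPKM of 1. Among them *Itgb7* fell in every line, from 3.25 to 0.112 in shControl cells. *Lama4*, the laminin chain bound by MCAM, rose in shControl cells from 15.6 to 32.2 and in shMLL1 cells from 9.53 to 36.3. It also rose in shKDM4D cells from 18.8 to 30.3 and in shNFIB cells from 17.7 to 33.1, both inside the 2-fold limit. *Cd6*, the leukocyte partner of ALCAM, had a highest RPKM of 0.0157.

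*Mcam* (chromosome 9, from 44134469 to 44142727, plus strand, protein coding), an adhesion molecule of endothelium and pericytes, rose in shControl cells and fell in each knockdown line. Its RPKM went from 1.18 to 4.42 in shControl cells, from 105 and 286 reads. It went from 2.95 to 0.787 in shKDM4D cells (193 and 57 reads), from 1.15 to 0.301 in shNFIB cells (72 and 16 reads) and from 1.72 to 0.689 in shMLL1 cells (220 and 88 reads). The shControl library was the highest at day 5, while at day 0 it did not differ from shNFIB cells beyond counting error (-0.03, from -0.48 to 0.42). The day 0 ratio of shKDM4D cells, 1.33, was inside the 2-fold limit with 1 added to each RPKM (0.86) and per *Gapdh* (0.93). The log2 change was 1.91 (1.58 to 2.25) in shControl cells against -1.91 (-2.36 to -1.47), -1.93 (-2.81 to -1.14) and -1.32 (-1.69 to -0.96) in shKDM4D, shNFIB and shMLL1 cells. With 1 added to each RPKM the changes in shNFIB and shMLL1 cells were -0.73 and -0.69. At day 5 the ratio to shControl cells was -2.49 (-2.92 to -2.07), -3.87 (-4.70 to -3.15) and -2.68 (-3.04 to -2.33), more than 2-fold in each line and under every setting tried. The direction at day 5 was that of the adipocyte genes given above, whose part was not tested. The endothelial genes stayed at 0.125 or below apart from *Tek* (0.211 to 1.58). Most like *Mcam* over the 8 libraries were *Tacc1* (r = 0.97), the fatty acid oxidation gene *Acadl* (0.90) and *D8Ertd738e* (0.88). *Tacc1* varied less than *Mcam*, from 2.90 to 7.13. *Acadl* and *D8Ertd738e* varied far less, from 61.7 to 92.3 and from 135 to 174.

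*Alcam* (chromosome 16, from 52248996 to 52454074, minus strand, protein coding) was lower at day 5 in every line. Its RPKM went from 18.4 to 9.64 in shControl, from 18.1 to 9.80 in shKDM4D, from 13.1 to 4.73 in shNFIB and from 11.1 to 2.62 in shMLL1 cells. The shKDM4D and shControl libraries did not differ beyond counting error at day 0 (-0.03, from -0.10 to 0.05) or at day 5 (0.02, from -0.08 to 0.13), whereas the other lines were lower on both days. The log2 change was -0.94 (-1.03 to -0.84) in shControl, -0.89 (-0.98 to -0.79) in shKDM4D, -1.47 (-1.61 to -1.33) in shNFIB and -2.08 (-2.20 to -1.96) in shMLL1 cells. At day 5 the ratio to shControl cells was -1.03 (-1.17 to -0.88) in shNFIB and -1.88 (-2.01 to -1.75) in shMLL1 cells, the former inside the 2-fold limit with 1 added to each RPKM (-0.89) and per *Gapdh* (-0.98). The basement membrane gene *Nid1* (r = 0.96), the cytoskeletal linker gene *Dst* (0.96) and the malic enzyme gene *Me1* (0.95) had the most similar patterns. *Dst* and *Me1* varied less than *Alcam*, from 3.19 to 10.3 and from 16.8 to 35.0.

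NFIB belongs to the NFI factors, which bind the half-site TTGGC, read as GCCAA on the other strand. The promoter sequences of *Pdgfra*, *Mcam* and *Alcam* are shown because these were the markers with a sequence at hand that were lowest relative to shControl cells in shNFIB cells at day 5. They cover 250 bases before and 50 bases after the RefSeq start on GRCm38.p6, are written on the strand of the gene, and carry half-sites in capitals.
Pdgfra chr5:75152001-75152300 (plus strand): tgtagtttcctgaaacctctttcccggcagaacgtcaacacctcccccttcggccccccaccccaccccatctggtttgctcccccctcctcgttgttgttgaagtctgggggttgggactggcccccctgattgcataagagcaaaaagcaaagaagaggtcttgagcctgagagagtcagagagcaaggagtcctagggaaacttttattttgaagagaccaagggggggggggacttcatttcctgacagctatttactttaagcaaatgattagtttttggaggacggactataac
Mcam chr9:44134408-44134707 (plus strand): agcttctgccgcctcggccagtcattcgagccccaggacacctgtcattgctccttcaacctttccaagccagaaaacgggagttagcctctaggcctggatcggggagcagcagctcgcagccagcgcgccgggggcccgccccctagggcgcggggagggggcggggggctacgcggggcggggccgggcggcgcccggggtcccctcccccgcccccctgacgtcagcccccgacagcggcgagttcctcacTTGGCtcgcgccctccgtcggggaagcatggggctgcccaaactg
Alcam chr16:52453032-52453331 (minus strand): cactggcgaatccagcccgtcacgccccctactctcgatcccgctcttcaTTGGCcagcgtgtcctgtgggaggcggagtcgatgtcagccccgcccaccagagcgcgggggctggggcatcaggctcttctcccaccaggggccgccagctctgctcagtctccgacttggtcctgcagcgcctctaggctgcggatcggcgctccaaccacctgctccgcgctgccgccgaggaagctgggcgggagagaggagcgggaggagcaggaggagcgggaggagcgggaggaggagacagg
The half-site of *Mcam* began at base 6 of the RefSeq transcript and that of *Alcam* 200 bases before the RefSeq start. The *Pdgfra* sequence held none. The gene limits given above for *Mcam* and *Alcam*, from another annotation (GENCODE M21), reach further upstream, so that both half-sites lie within them. RefSeq sequences were matched for 6 of the 10 markers (*Eng*, *Nt5e*, *Cd44*, *Pdgfra*, *Mcam* and *Alcam*), of which 3 held a half-site, the third being *Eng*, 165 bases before its start. Of 32851 mouse promoters of the same length, 46.7% held a half-site, so a half-site is common. The full palindrome, in which both half-sites face each other across 5 bases, was in 12 of the 32851 (0.0365%) and in 0 of the 6. A match is a stretch of letters and no binding was measured here. *Thy1*, *Ly6a*, *Vcam1* and *Pdgfrb* were not analysed in this way.

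The change over time in each knockdown line was then set against that of shControl cells, marker by marker. In shKDM4D cells the difference of the log2 changes exceeded 2-fold upwards for 1 of 9 markers (*Thy1*, against 2.21% of all genes with a value) and downwards for 1 (*Mcam*, against 2.97%). In shNFIB cells it did so upwards for 2 (*Thy1*, from no more than 3 reads, and *Ly6a*, against 6.3%) and downwards for 2 (*Pdgfra* and *Mcam*, against 3.86%). In shMLL1 cells it did so upwards for 2 (*Eng* and *Ly6a*, against 9.34%) and downwards for 3 (*Pdgfra*, *Mcam* and *Alcam*, against 2.69%). Intervals of these differences are normal approximations from the reads and cover counting error only. For *Mcam* the difference was -3.81 (-4.35 to -3.28), -3.84 (-4.69 to -3.00) and -3.23 (-3.71 to -2.75) in the 3 lines. For *Ly6a* it was 3.85 (3.77 to 3.93) in shMLL1 cells. For *Pdgfra* the difference was -0.65 (-0.73 to -0.57) in shKDM4D, -1.05 (-1.13 to -0.96) in shNFIB and -1.09 (-1.16 to -1.02) in shMLL1 cells. *Pdgfrb* had -0.26, 0.20 and 0.10 in the same lines.

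As a background for the 10 markers, 22 other surface markers of stromal progenitors were examined, of which 16 passed an RPKM of 1. Over the 5 days, 7, 5, 7 and 7 of the 16 rose past the limit in shControl, shKDM4D, shNFIB and shMLL1 cells and 1, 1, 0 and 0 fell, beside 13%, 12.8%, 12.6% and 20.4% of all expressed genes that rose and 8.56%, 8.44%, 4.96% and 6.89% that fell. Higher by more than 2-fold in all lines were the endosialin gene *Cd248*, the tetraspanin gene *Cd82*, the aminopeptidase N gene *Anpep* and *Pi16*. *Cd248* went from between 148 and 229 at day 0 to between 349 and 469 at day 5. *Pi16* started low, between 0.0134 and 0.273 at day 0. It passed an RPKM of 1 only in the day 5 libraries of shKDM4D (2.30) and shNFIB cells (1.17). *Cd55* passed it only at day 5, in shControl (2.39), shNFIB (1.26) and shMLL1 cells (3.43). The counted rises of both genes in those lines were thus favoured by the filter. *Anpep* rose from 6.22 to 46.8 in shControl cells, and at day 5 was lower than there in shKDM4D (-0.56), shNFIB (-1.06) and shMLL1 cells (-0.95). At day 5, 1 of the 16 was higher and 2 lower in shKDM4D than in shControl cells (against 1.88% and 4.57% of all genes). In shNFIB cells 1 was higher and 1 lower (against 5.54% and 5.67%), and in shMLL1 cells 0 and 1 (against 5.25% and 4.02%). The gene higher in shKDM4D cells was *Pi16*, whose limit was given above. The gene higher in shNFIB cells, *Cd24a*, passed an RPKM of 1 only in that day 5 library (1.91). Both calls, and the rise of *Cd24a* in shNFIB cells, were thus favoured by the filter. The medians of the 16 ratios were 0.04, -0.01 and -0.33, beside -0.22, -0.06 and -0.04 for the 9 markers and 0.01, 0.09 and 0.07 over all expressed genes. *Dpp4* was at 0 in every library, and *Cd34* had a low RPKM, from 0.0808 to 0.187. Of 8 NF-kB target genes, which were examined because *Vcam1* is among the genes that NF-kB can induce, 7 passed an RPKM of 1, and 1, 1, 3 and 2 rose in shControl, shKDM4D, shNFIB and shMLL1 cells, against the same shares of all genes.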

How the data were processed

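RNA-seq libraries of total RNA were made with a SMARTer kit. As the study's methods state, the authors mapped reads with CLC Genomics Workbench to GRCm38 (mm10). The deposited files hold 1 RPKM value per gene and library. The annotation release and the handling of reads with several matches are not given in the sources used here. The deposited RPKM values were multiplied by the union exon length of GENCODE M21, which gave whole reads (within 0.02) for 96.0% to 96.4% of values between 1 and 1000 reads. Ratios of RPKM were taken without a pseudocount among 11513 genes above an RPKM of 1 in at least 1 library. A 2-fold limit served as the call, because 1 library per condition gives no test and no p-value. Exact intervals of reads and ratios (95%, Clopper-Pearson and Poisson) and normal approximations for differences of changes cover counting error only, and 3 reads were taken as the detection limit. Beside the markers, up to 4 genes with the highest RPKM of each pathway list and those in counts of 5 or fewer were named. For markers whose highest RPKM was over 4 times their lowest, the 3 genes of highest Pearson r of log2(RPKM + 0.1) over the 8 libraries were named, among genes with an RPKM of at least 5. List genes at or near 0, the neighbours of *Thy1* and *Has2* in shNFIB cells were named after their values were seen. The markers and lists were chosen with earlier results of these data known. A gene of the interferon-induced list is not reported here. Pseudocounts, filters and scalings were varied. Scripts were tested on simulated data (Python 3.11.15, pandas 2.3.3, scipy 1.17.1).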

Additional observations from a re-analysis of the deposited data

Results flagged for a closer look

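In 7 cases the change from day 0 to day 5 went the opposite way in a knockdown line and in shControl cells, each beyond counting error. *Thy1* had a log2 change of 3.02 in shKDM4D cells against -0.15 in shControl cells, from 1 and 9 reads. *Eng* had 0.89 in shMLL1 cells against -0.26. *Ly6a* had 1.91 in shNFIB and 3.51 in shMLL1 cells against -0.34. *Mcam* had -1.91 (shKDM4D), -1.93 (shNFIB) and -1.32 (shMLL1) against 1.91. With 1 library per condition, the difference between lines was not tested for any of them, and the same shControl libraries enter all 7.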

How the results depend on the processing

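No paired analysis was possible because each condition has 1 library and each comparison is within 1 line or 1 day. A fit of the days over the 4 lines, taking the lines as replicates, was not run. Of 88 counts of markers past 2-fold, 83 stayed within 1.5 times under other settings and 5 did not. In shKDM4D cells at day 0 the count (2) was 1 with 1 added to each RPKM and 1 per *Gapdh*. In shNFIB cells at day 0 the count (1) was 2 with no filter, which adds *Nt5e*, and 2 per *Gapdh*. In shMLL1 cells at day 0 the count (2) was 0 under median-of-ratios scaling. No ratio past 2-fold turned sign. Of 35 such ratios, 34 kept the call with 0.1 added to each RPKM, 27 with 1 added, 33 under quantile normalization, 32 under median-of-ratios scaling and 31 per *Gapdh*. Scaling moved the median of all genes by over 0.1 in the day 5 over day 0 ratio of shNFIB (-0.14 quantile, -0.11 median-of-ratios) and shMLL1 cells (-0.27 and -0.21), and per *Gapdh* by up to 0.64, in shNFIB cells at day 0. The share of higher among all 2-fold genes in the day 5 over day 0 ratio went from 71.8% to 56.2% in shNFIB cells (quantile) and from 74.7% to 52.8% (quantile) or 60.3% (median-of-ratios) in shMLL1 cells, and in shMLL1 cells at day 0 from 18.3% to 28.7% (quantile). Per *Gapdh* it went in the day 5 over day 0 ratio from 60.2% to 84.6% in shKDM4D and from 71.8% to 29.4% in shNFIB cells. Relative to shControl cells it went per *Gapdh* from 31.8% to 10.7% (shKDM4D) and from 32.8% to 86.8% (shNFIB) at day 0, and from 56.6% to 31.5% (shMLL1) at day 5. The cause was not tested. Other ratios turned sign in 14 cases per *Gapdh*, among them *Eng* over time in shKDM4D cells (0.04). Depth limits *Nt5e*, *Kdm4d* and *Thy1* in shKDM4D and shNFIB cells.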
